A study of Pimephales promelas with 338 samples.

Results

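The mitochondrial respiratory chain genes that this targeted assay reads in fathead minnow (Pimephales promelas) larvae were ndufa1, ndufb3, ndufv2 and ndufv3. They were chosen by name, as every gene symbol of the table that starts like a subunit of complexes I to IV or of ATP synthase, and 4 of 1829 symbols matched, each read by 1 of the 1832 probes. All 4 belong to complex I. The panel held 0 probes for complex II, complex III, complex IV and ATP synthase, so the values below describe complex I subunits and not the respiratory chain as a whole. Whole larvae were exposed for 24 h to 1 of 12 chemicals at 8 concentrations that the labels code D1 to D8, 1 larva to a well, in 6 exposures of 2 chemicals on 3 plates each. The series ran from 66.67 to 0.021 µM, except for fipronil amide (56.43 to 0.018 µM) and fexofenadine (32.2 to 0.011 µM), and the labels do not say which code is the highest concentration. Each plate also gave 1 caffeine library, the positive control (stated as 110 µM, with 8 replicates), and 1 DMSO library, the solvent control, and DMSO was at most 0.34% in every well, chemicals included. A library is a pool of 5 larvae of 1 plate by design, with dead larvae left out. The letters A, B and C of the coded descriptions were read as these plates. In all there were 286 libraries of chemicals, 18 of caffeine and 18 of DMSO from the plates, and a separate QA set of 8 caffeine and 8 DMSO libraries, for which the labels name no exposure. 2-tert-Butyl-4-methoxyphenol at D1 has a single library, from plate A, and the other 95 groups of a chemical and code have 3. The samples are whole bodies, so fewer cells of a type and less RNA per cell cannot be told apart.

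Complex I takes electrons from NADH, passes them to ubiquinone and pumps protons across the inner mitochondrial membrane, which drives the synthesis of ATP. Its matrix arm holds the module that oxidizes NADH, and its membrane arm holds the proton pumps, with many small accessory subunits around both. Muscle, heart and nervous tissue, which use much ATP, are rich in it. In mammals NDUFV2 is a core subunit of the NADH-oxidizing module and carries an iron-sulfur cluster, and NDUFV3 is a small accessory subunit of the same module. NDUFA1 and NDUFB3 are accessory subunits of the membrane part, and human NDUFA1 is needed for the complex to assemble. These roles are taken from mammals and were not tested in this fish.

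TempO-Seq joins a pair of oligonucleotides on each target transcript and counts the joined product. Library totals ran from 112247 to 1029511 counts with a median of 609598. The lowest total was that of cis-nonachlordane D6 on plate B, and the next lowest was 337162. A pair of libraries stood apart from the other libraries of their exposure over 1109 probes. The single 2-tert-butyl-4-methoxyphenol D1 library and the plate C library of gabapentin D5 had rank correlations of 0.870 and 0.872 with the median library of their exposure, while the next lowest was 0.947 and the median of all libraries 0.982. Counts of the members were high enough for every filter: all 4 members were tested in each of 322 fits. The skeletal muscle and heart marker lists had 0 probes on the panel, so the share of these tissues cannot be read.

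The members were among the more abundant targets. In counts per 1000000 counts of the library (CPM), ndufv3 averaged 2311 ± 194 CPM over the 286 chemical libraries, 2310.2 ± 224 CPM in the 18 caffeine libraries of the plates and 2313 ± 201 CPM in their 18 DMSO libraries (SD). For ndufa1 the means were 1878 ± 178 CPM with the chemicals, 1894 ± 165 CPM with caffeine and 1924 ± 173 CPM in DMSO. The membrane arm subunit ndufb3 averaged 391 ± 42.8 CPM with the chemicals, 394 ± 52.9 CPM with caffeine and 384 ± 36.8 CPM in DMSO. The core subunit ndufv2 averaged 327 ± 80.5 CPM with the chemicals, 334 ± 79.7 CPM with caffeine and 347 ± 103 CPM in DMSO. By their DMSO means they ranked 65 (ndufv3), 74 (ndufa1), 226 (ndufb3) and 249 (ndufv2) of 1832 probes. Each gene is read by 1 probe of unknown efficiency, so these ranks order probes and not transcripts.

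Mean levels were higher in the QA libraries than on the plates for all 4 members in caffeine, and for 3 of them in DMSO, with ndufv2 at about the same mean. In the QA set ndufv3 averaged 2646 ± 133 CPM with caffeine and 2482 ± 93.9 CPM in DMSO, and ndufa1 averaged 2076 ± 255 CPM with caffeine and 2056 ± 128 CPM in DMSO (SD, n = 8 each). The values for ndufb3 were 447 ± 20.4 CPM with caffeine and 430 ± 30.1 CPM in DMSO, and those for ndufv2 were 356 ± 26.4 CPM with caffeine and 347 ± 46.9 CPM in DMSO. Levels of QA and plate libraries were not tested against each other, since they were made as separate sets. The 4 probes together took 5524 ± 219 CPM in caffeine QA libraries and 5314 ± 198 CPM in DMSO QA libraries, against 4933 ± 377 CPM with caffeine and 4968 ± 393 CPM in DMSO on the plates.

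Replicates of 3 of the 4 members spread less than the typical probe, and those of ndufv2 spread more. Over 107 groups of 3 libraries the median coefficient of variation was 5.14% for ndufv3, 5.76% for ndufa1, 8.77% for ndufb3 and 15.9% for ndufv2, beside a median of 10.6% over the 491 probes with a mean count of 100 or more. These probes were not matched to the members in count. The median count per library was 1401 for ndufv3 and 1141.5 for ndufa1, and the part of count in their low spread was not tested. For ndufv2 the libraries ran from 139 CPM with cetirizine D3 to 565 CPM with 2-tert-butyl-4-methoxyphenol D6, the widest range of the 4 relative to its mean, and at a median of 198 counts per library it was also the member with the fewest counts. The range of ndufv3 was 1716 to 2826 CPM, that of ndufa1 1499 to 2607 CPM and that of ndufb3 283 to 504 CPM. The gabapentin D5 library that stood apart held the highest ndufa1 value (2607 CPM), the highest ndufb3 value (504 CPM) and the lowest ndufv3 value (1716 CPM) of all libraries. With that library and the single D1 library left out, the group means of the members, centred on their chemical, correlated with r between 0.006 (ndufb3 and ndufv2) and 0.300 (ndufb3 and ndufv3) over 95 groups. With them the range was 0.005 to 0.241 over 96 groups, which share plates and DMSO solvent and differ in depth.

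**Figure D1:**
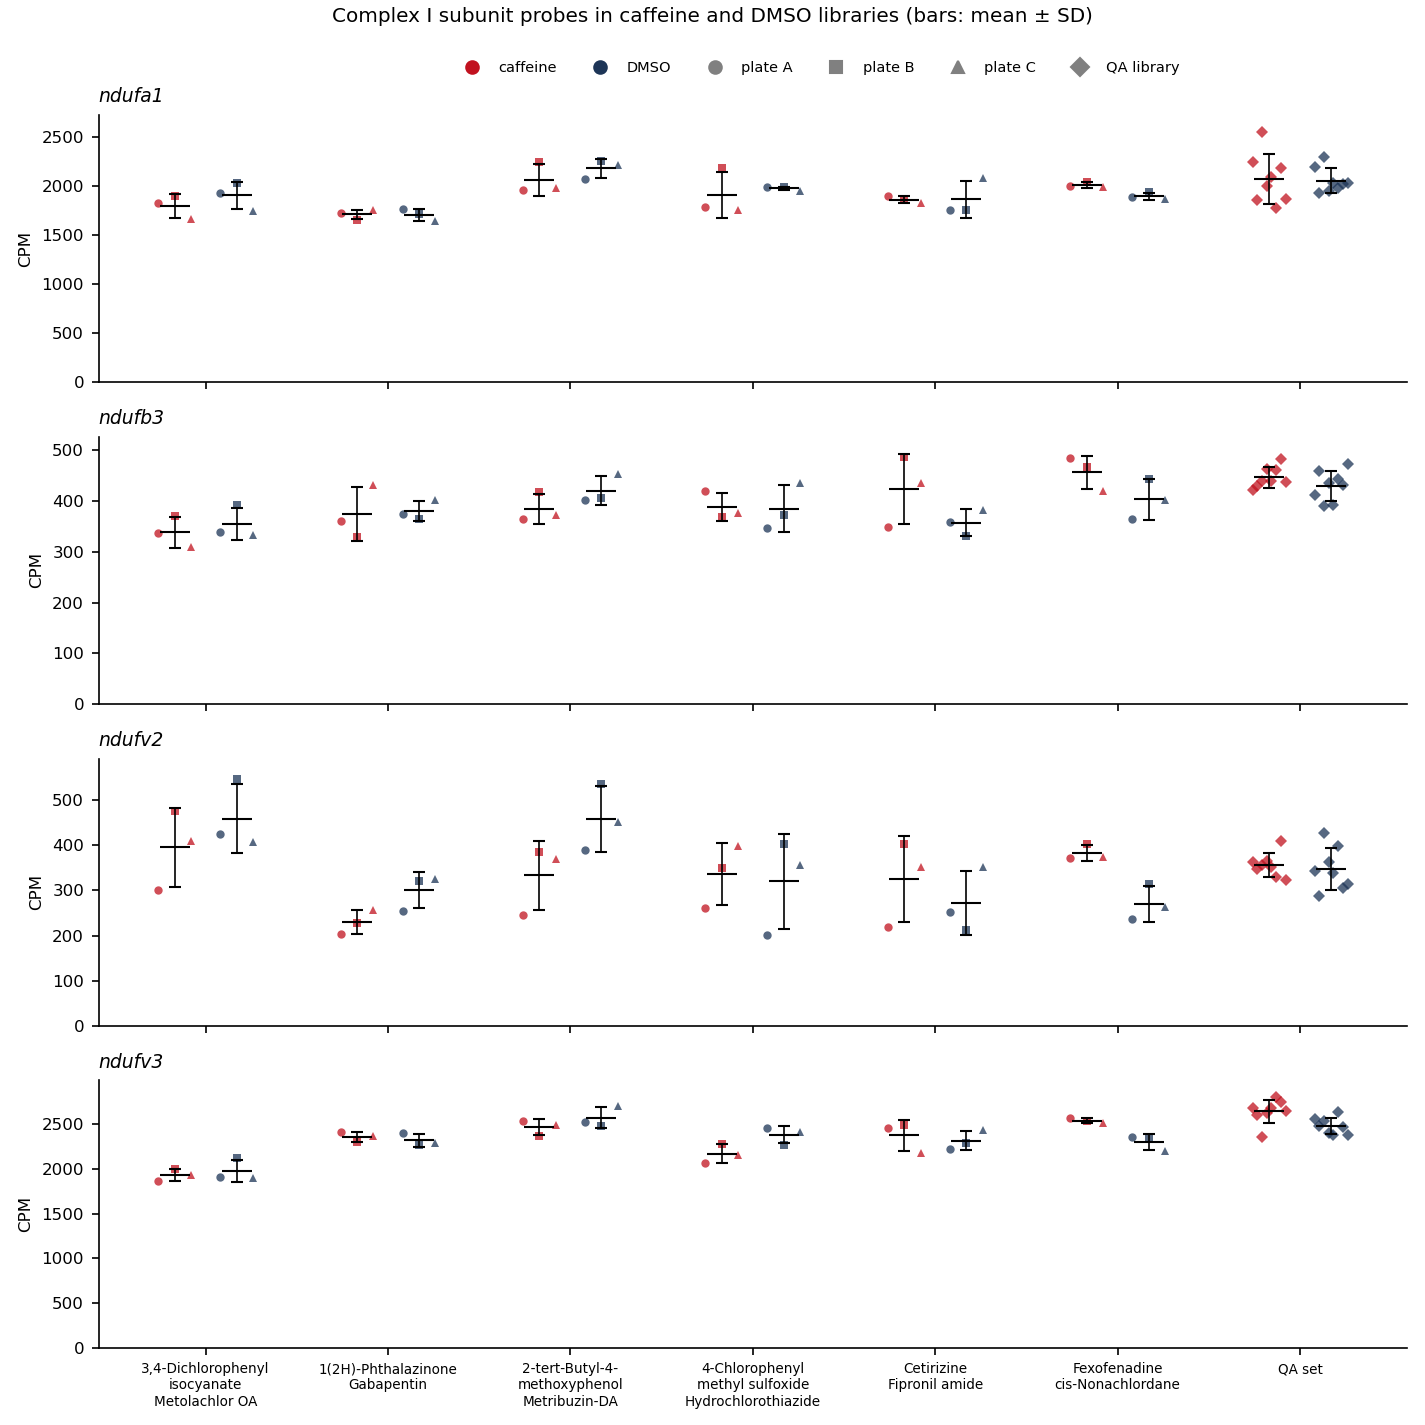
CPM (counts scaled to a library total of 1000000, y axis from 0) of each member in caffeine libraries (red, left) and DMSO libraries (blue, right) of the 6 exposures, named by their chemicals, and of the QA set. Points are libraries, symbols are plates, and black bars are the mean ± SD (n = 3 each, 8 in the QA set). Relative to its level ndufv2 spread most, with a ratio of 1.69 between its highest and lowest DMSO mean (459 and 271 CPM), while caffeine and DMSO overlap for every member over the plates as a whole.

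Among the DMSO larvae, which saw no test chemical, ndufv2 differed between the 6 exposures and the other members did not pass the test. On the plates of metolachlor OA and 3,4-dichlorophenyl isocyanate, ndufv2 had 424, 546 and 407 CPM in DMSO (plates A, B and C). On those of metribuzin-DA and 2-tert-butyl-4-methoxyphenol it had 390, 535 and 451 CPM in DMSO. Apart from the plate A library at 390 CPM, these lay above all other DMSO libraries of the plates, the highest of which had 402 CPM. With hydrochlorothiazide and 4-chlorophenyl methyl sulfoxide the DMSO libraries had 200.2, 402 and 357 CPM, and with 1(2H)-phthalazinone and gabapentin 255, 322 and 325 CPM. With cetirizine and fipronil amide they had 253, 213 and 351 CPM, and with fexofenadine and cis-nonachlordane 236, 314 and 262 CPM. The exposure means thus ran from 271 ± 39.8 to 459 ± 76.1 CPM (SD, n = 3 each), a ratio of 1.69.

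The edgeR quasi-likelihood F-test over the 6 DMSO means gave an adjusted p (Benjamini-Hochberg over 1474 genes) of 0.00468 for ndufv2, and 144 of those genes (9.77%) passed, so that 1 of 4 members stands beside a background of about 1 in 10. Without plate B the call was lost (adjusted p = 0.126 in edgeR), and then 13 genes of all passed. For ndufa1 the DMSO means ran from 1709 to 2184 CPM (adjusted p = 0.0594) and for ndufv3 from 1978 to 2573 CPM (adjusted p = 0.0603), and both passed in DESeq2 (adjusted p = 0.0104 and 0.0066). The DMSO means of ndufb3, 355 to 421 CPM, differed least (adjusted p = 0.218 in edgeR). Exposure, sequencing depth and library preparation cannot be told apart here. Over the chemical libraries of the same plates the exposure means of ndufv2 ran from 272 ± 62 CPM (48 libraries of 1(2H)-phthalazinone and gabapentin) to 378 ± 62.9 CPM (46 libraries of metribuzin-DA and 2-tert-butyl-4-methoxyphenol), a ratio of 1.39. These means rest on many more libraries than the 3 of each DMSO mean, so the 2 ratios are not alike. Caffeine means of ndufv2, of 3 libraries each, ran from 230 to 395 CPM. All differences from DMSO of an exposure share its 3 DMSO libraries, whose level shifts them together. On the plates of metolachlor OA and 3,4-dichlorophenyl isocyanate 15 of 16 code means of ndufv2 were below DMSO, while on those of cetirizine and fipronil amide 4 of 16 were.

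No change of a member was detectable with caffeine, a purine alkaloid that blocks adenosine receptors. With the exposure as a term, edgeR called 0 of 4 members on the plates, where 58 of 1363 genes (4.26%) passed. The members had 0 unadjusted p-values under 0.05, and DESeq2 also called 0. The caffeine library was above the DMSO library of its plate in 7 of 18 pairs for ndufa1, 8 for ndufb3, 8 for ndufv2 and 11 for ndufv3. The fitted caffeine over DMSO fold was 1.00 for ndufa1 (95% interval 0.941 to 1.06), 1.04 for ndufb3 (0.963 to 1.12), 0.977 for ndufv2 (0.848 to 1.13) and 1.01 for ndufv3 (0.96 to 1.07). In the QA libraries edgeR again called 0 of 4 members, beside 17 of 1324 genes (1.28%), and so did DESeq2. There ndufv3 was 1.08-fold higher with caffeine (95% interval 1.01 to 1.15), with an unadjusted p of 0.0299 and an adjusted p of 0.396 in edgeR. In 8 caffeine QA libraries ndufv3 ran from 2357 to 2803 CPM with a median of 2666 CPM, and in 8 DMSO QA libraries from 2378 to 2637 CPM with a median of 2478 CPM, so the groups overlapped. The labels do not say whether QA libraries came from separate cultures, so their p-values may measure technical spread only.

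The caffeine change of the members was not shown to differ between exposures or between sets. The interaction of caffeine and exposure passed in 0 of 4 members and in 0 of 1506 genes (0%) in edgeR, with 64 genes at an unadjusted p under 0.05. Among these were 2 members, ndufv2 (unadjusted p = 0.00872, adjusted p = 0.99 in edgeR) and ndufv3 (unadjusted p = 0.0493, adjusted p = 0.99 in edgeR). For ndufv2 caffeine means were above DMSO with fexofenadine and cis-nonachlordane, at 383 ± 17.7 CPM with caffeine and 271 ± 39.8 CPM in DMSO (SD, n = 3 each). They were below DMSO with metribuzin-DA and 2-tert-butyl-4-methoxyphenol, at 333 ± 76.2 CPM with caffeine and 459 ± 72.9 CPM in DMSO. Summed over the 4 members, the first of these exposures had 5397 ± 79.8 CPM with caffeine and 4877 ± 160 CPM in DMSO. The second had 5253 ± 159 CPM with caffeine and 5636 ± 221 CPM in DMSO, and the sums were not tested. The difference between QA and plates also passed in 0 of 4 members and 0 of 1508 genes (0%) in edgeR, with 52 genes and 0 members at an unadjusted p under 0.05. DESeq2 called 0 genes in both comparisons. Members of the neighbouring metabolic lists that did respond to caffeine were few: in glycolysis aldoaa, an aldolase gene, rose by 0.31 ± 0.08 on the log2 scale on the plates (adjusted p = 0.0178 in edgeR) and by 0.49 ± 0.06 in the QA set (adjusted p = 1.02e-06), as 1 of 13 tested in each. None of the tested genes of the tricarboxylic acid cycle (3), the mitochondrial carriers (8) or the mitochondrial ribosome (12) passed in either set. Outside metabolism the caffeine libraries of the plates had 10 of 18 cell cycle genes lower, and the liver marker tat and the haemoglobin gene hbae5 rose in both sets. On the plates the other liver markers, apoa2, fabp10a, fgb and fgg, did not pass (adjusted p from 0.159 to 0.976 in edgeR). Neither did the haemoglobin gene hbae3 (adjusted p = 0.547 in edgeR).

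Over the 12 chemicals 1 member passed the test, with 1 chemical. The slope of each member over the 8 codes, as log2 change per code step towards D1, used no DMSO library and was tested in edgeR with all genes of the chemical. Of 48 slopes 21 were above 0 and 27 below, 3 had an unadjusted p under 0.05, and 1 passed the adjusted threshold of 0.05. The slopes ran from -0.010 to 0.011 for ndufv3, from -0.024 to 0.006 for ndufb3, from -0.046 to 0.018 for ndufa1 and from -0.048 to 0.053 for ndufv2. Of 384 differences between a code and the DMSO libraries of its exposure, 184 were above 0 and 200 below, 19 had an unadjusted p under 0.05, and 1 passed. Both calls fell on ndufa1 with 2-tert-butyl-4-methoxyphenol.

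**Figure D2:**
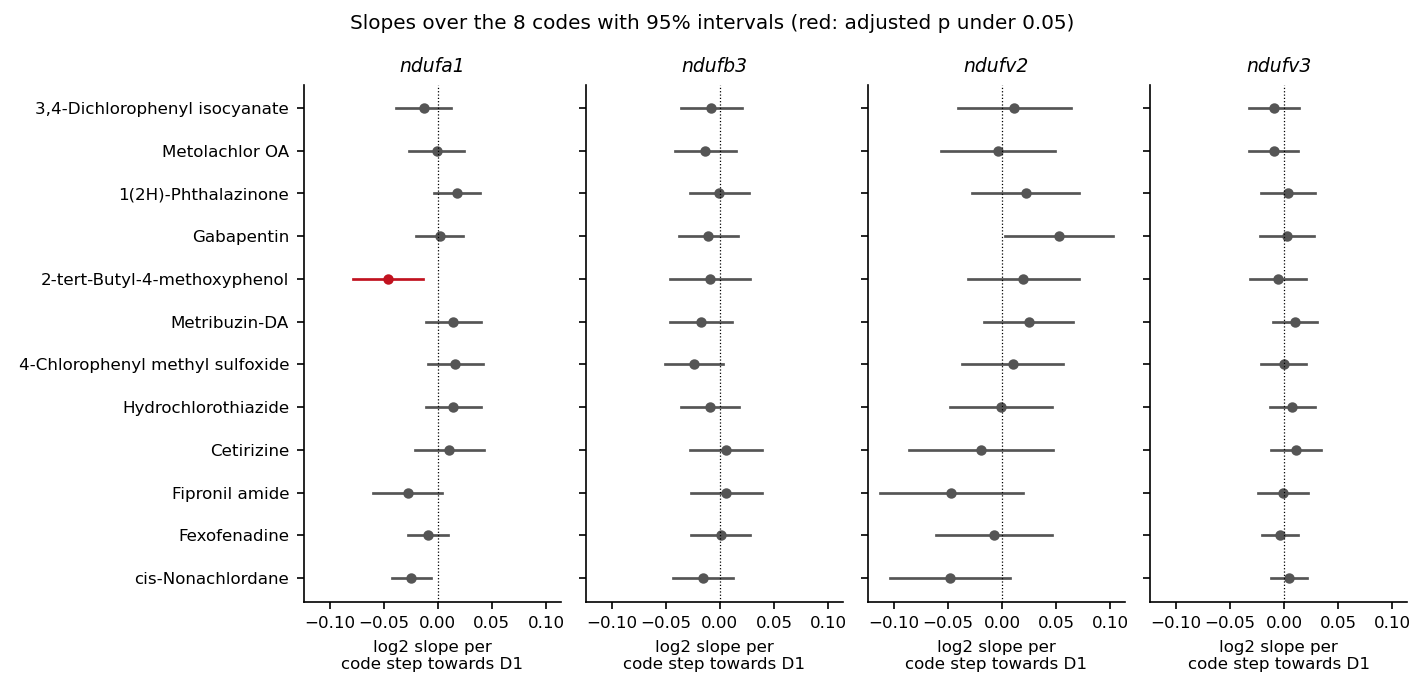
Slope of each member over the codes D1 to D8 for each of the 12 chemicals, in log2 change per code step, positive when the level rises towards D1. Dots are edgeR estimates and lines their 95% intervals. The single slope past the adjusted threshold, ndufa1 with 2-tert-butyl-4-methoxyphenol (-0.046), is red, and intervals of ndufv2 are the widest.

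2-tert-Butyl-4-methoxyphenol is an isomer of the food antioxidant butylated hydroxyanisole. With it ndufa1 had a fitted slope below 0 towards D1 and was lower than in DMSO at D2, and ndufb3, ndufv2 and ndufv3 gave no call. From D8 to D2 the means of ndufa1 were 2016, 1964, 1998, 2154, 2184, 1972 and 1640 CPM, so they did not fall step by step. At D1 the single library, on plate A, had 1562 CPM of ndufa1. At D2 the 3 libraries had 1698, 1642 and 1580 CPM (plates A, B and C), against 2077, 2261 and 2214 CPM in the DMSO libraries of the same plates. How many of all genes show such a gap between D2 and DMSO libraries was not counted, so these values are a description. In this exposure 15 of 16 code means of ndufa1 lay below DMSO. At D3 ndufa1 had 1695, 2191 and 2031 CPM, and at D4 1978, 2332 and 2242 CPM. At D5 it had 2118, 2164 and 2181 CPM, and at D6 1957, 2084 and 1954 CPM. At D7 it had 1947, 2085 and 1861 CPM, and at D8 1767, 2219 and 2063 CPM. From D3 on the ranges of each group and of DMSO overlapped. Within plates, however, the library was below the DMSO library of its own plate on all 3 plates at D3, D6, D7 and D8 as well as at D2, on 2 at D5 and on 1 at D4. Over the 12 chemicals ndufa1 was below DMSO on all 3 plates in 27 of 95 groups. Caffeine libraries of these plates had 1961, 2251 and 1983 CPM.

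The slope of ndufa1 was -0.046 ± 0.016 per step towards D1 (SE, adjusted p = 0.0293 in edgeR with Benjamini-Hochberg adjustment over 1589 genes). In that fit 433 genes (27.2%) passed and 204 (12.8%) fell towards D1, so 1 of 4 members called is close to the share of all genes. At D2 ndufa1 was 0.749-fold of DMSO (95% interval 0.637 to 0.881), a log2 change of -0.42 ± 0.12 (adjusted p = 0.0387 in edgeR over genes and 8 codes). With the plate as a block the D2 change was -0.42 ± 0.087 (adjusted p = 0.00169 in edgeR). In this exposure the DMSO level of ndufa1 was the highest of the 6, and 15 of the 16 code means in CPM lay below it, those of metribuzin-DA at D2 to D8 among them. The differences of metribuzin-DA from the same DMSO libraries ran from -0.19 at D7 to 0.01 at D1 on the log2 scale. At D2 of 2-tert-butyl-4-methoxyphenol 50 genes (3.15%) passed and 14 (0.881%) were lower, and at some code 234 genes (14.7%) passed. At D1 the log2 change was -0.54 ± 0.17 and missed the threshold (adjusted p = 0.0937 in edgeR), where 213 genes (13.4%) passed. With the plate as a block it passed there too (adjusted p = 0.0349 in edgeR). The D2 value is an estimate from 3 libraries, and the D1 value has no replicate of its own and takes its spread from the other groups.

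These calls rest on few libraries. Without the single D1 library the slope of ndufa1 was -0.018 (adjusted p = 0.602 in edgeR), and 71 genes of all passed in place of 433. The D2 difference was then -0.42 ± 0.11 (SE), about as with D1 kept, and its adjusted p was 0.119 in edgeR over 7 codes. In that fit 32 genes of all passed at some code, in place of 234. Without plate A, and so without D1, the slope was -0.020 (adjusted p = 0.613). Without plate B it was -0.040 (adjusted p = 0.0664), and without plate C -0.044 (adjusted p = 0.147). The D2 difference stayed between -0.46 and -0.39 without each plate in turn, with adjusted p-values of 0.190 (without A), 0.114 (without B) and 0.484 (without C). Plate A was low in ndufa1 as a whole, with a mean of 1885 CPM over its 18 libraries of this exposure, against 2169 CPM on plate B and 2048 CPM on plate C. Within plates, the slope of log2 CPM was below 0 on each: -0.035 on plate A over 8 codes, and -0.036 on plate B and -0.025 on plate C over 7 codes. These slopes were taken without TMM factors, so they cannot be set against the fitted slopes. The TMM fit of plates B and C, which have no D1 library, gave the -0.020 above. For comparison, ndufa1 had slopes below 0 on all 3 plates in 4 of the 12 chemicals and above 0 on all 3 in 4. The D2 library was 0.818 of the DMSO library of its own plate on A, 0.726 on B and 0.713 on C. At D7 these ratios were 0.938 on A, 0.922 on B and 0.841 on C, and at D3 they were 0.816 on A, 0.969 on B and 0.917 on C.

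**Figure D3:**
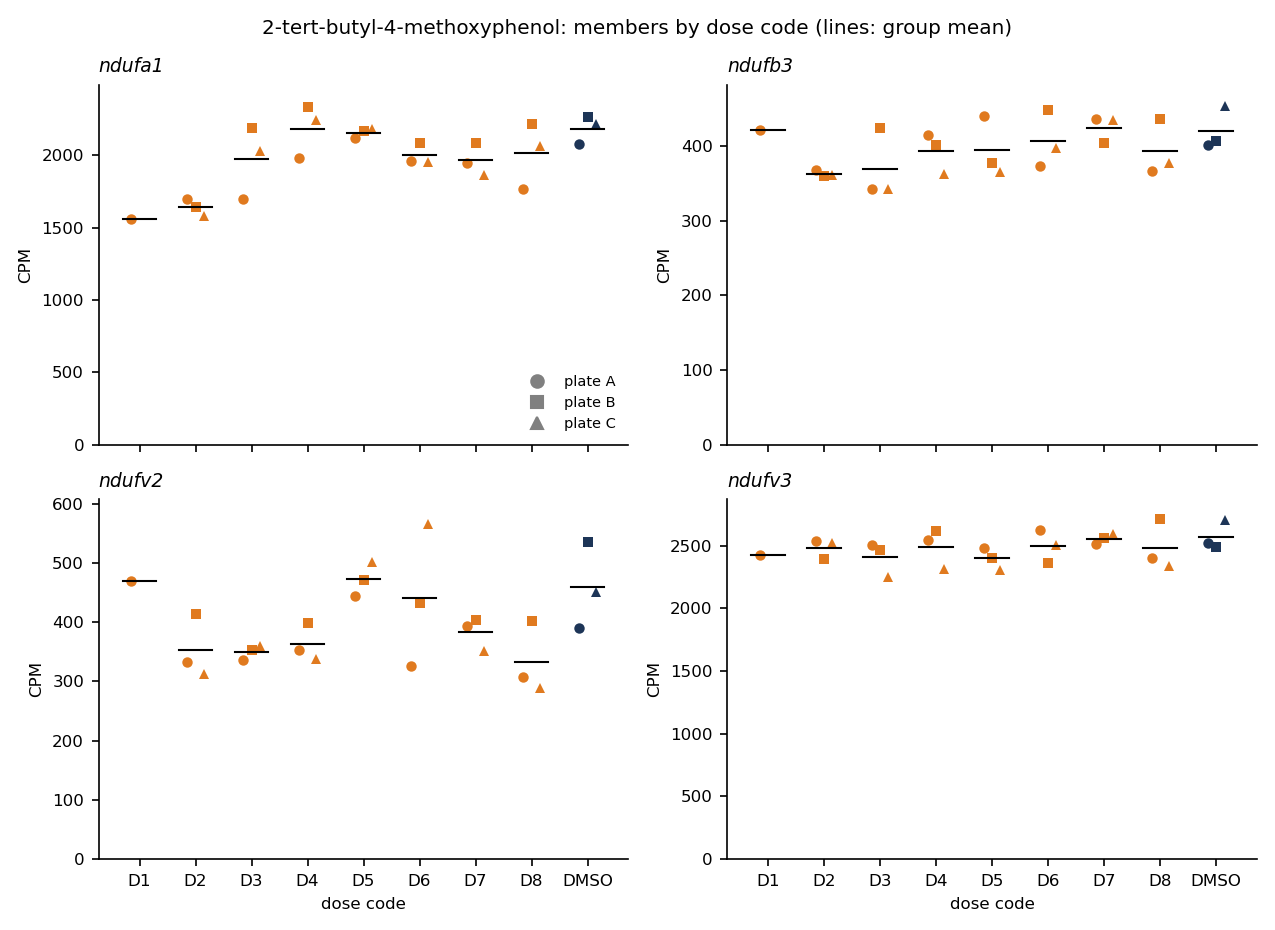
CPM of the 4 members (y axes from 0) at each code of 2-tert-butyl-4-methoxyphenol, D1 to D8 (orange), and in DMSO libraries of the same plates (blue, right). Points are libraries, symbols are plates and lines are group means, with 1 library at D1 and 3 elsewhere. For ndufa1 the D1 and D2 libraries had 1562 to 1698 CPM and the DMSO libraries 2077 to 2261 CPM. How many of all genes show such a gap was not counted.

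No slope of the other members passed. The slope of ndufv3 was -0.0055 ± 0.013 (95% interval -0.031 to 0.020) and that of ndufb3 -0.009 ± 0.018 (-0.046 to 0.027), with adjusted p-values of 0.795 and 0.762 in edgeR. The slope of ndufv2 was 0.020 ± 0.026 (-0.032 to 0.071, adjusted p = 0.614 in edgeR). Within plates, the slope of log2 CPM of ndufb3 was below 0 on each, as for ndufa1: -0.003 on A, -0.030 on B and -0.036 on C. Those of ndufv2 and ndufv3 were above 0 on plate A and below 0 on plates B and C. At D2 ndufv3 had 2538, 2395 and 2523 CPM, against 2526, 2487 and 2707 CPM in DMSO, and these overlapped. For ndufb3 the D2 libraries had 368, 360 and 361 CPM, against 402, 406 and 454 CPM in DMSO. The difference of ndufb3 gave no call, and 13 of the 16 code means of ndufb3 in this exposure were below DMSO. For ndufv2 the D2 libraries had 332, 414 and 313 CPM, against 390, 535 and 451 CPM in DMSO, which overlapped (log2 difference -0.38 ± 0.19, unadjusted p = 0.0454, adjusted p = 0.489 in edgeR). At D2 ndufb3 and ndufv2, like ndufa1, were below the DMSO library of their own plate on all 3 plates, and ndufv3 on 2. The ratio of ndufa1 to ndufv3 counts within a library was 0.643 at D1 and 0.669, 0.686 and 0.626 at D2, against 0.822, 0.909 and 0.818 in DMSO. At D3 to D8 it ran from 0.676 (D3, plate A), within the range at D2, to 0.968 (D4, plate C). The ratio was not tested. Over all libraries of the series this ratio had a median of 0.814 and a range of 0.624 to 1.52.

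The slope of ndufa1 with 2-tert-butyl-4-methoxyphenol also differed from that with metribuzin-DA, the other chemical of these plates. The difference, 2-tert-butyl-4-methoxyphenol minus metribuzin-DA, was -0.060 ± 0.021 per step (adjusted p = 0.0389 in edgeR), where 233 of 1589 genes (14.7%) passed and 94 (5.92%) were below 0. Metribuzin-DA itself gave a slope of 0.014 ± 0.013 for ndufa1 (adjusted p = 0.800). The difference was lost without D1 (-0.025, adjusted p = 0.825 in edgeR) and without plate A (-0.036, adjusted p = 0.715), B (-0.052, adjusted p = 0.125) or C (-0.060, adjusted p = 0.199). In the other 5 exposures 0 of 4 members had slopes that differed between the 2 chemicals in edgeR or DESeq2, with 0 at an unadjusted p under 0.05. For 3,4-dichlorophenyl isocyanate minus metolachlor OA the background was 87 of 1507 genes (5.77%), and in the remaining 4 it was 0%.

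Genes of the neighbouring pathways were read from lists chosen by name, over all genes of the same fit, whose median slope was -0.005 and of which 229 (14.4%) rose and 204 (12.8%) fell. Of 14 glycolysis genes tested 7 rose and 2 fell towards D1, with a median of 0.063. They were led by ldha, which makes lactate from pyruvate (0.30 ± 0.02 per step), aldoaa (0.27 ± 0.03) and gpia, which makes fructose 6-phosphate (0.19 ± 0.02). Of 8 mitochondrial carriers 2 rose and 1 fell: slc25a4 (0.056 ± 0.022) and slc25a5 (0.054 ± 0.019), both ADP/ATP carriers, and slc25a14 (-0.21 ± 0.08). A further ADP/ATP carrier, slc25a6, had a slope below 0 that did not pass (-0.035 ± 0.020, adjusted p = 0.197 in edgeR). Of 14 genes of the mitochondrial ribosome and its translation 2 fell, mrps17 (-0.086 ± 0.020) and mrpl37 (-0.078 ± 0.024), close to the share of all genes that fell, and the median was -0.042. None of 5 genes of the tricarboxylic acid cycle (median -0.055), 3 of electron carriers, assembly and biogenesis (median -0.009) or 8 of fatty acid beta-oxidation (median -0.043) passed. Among 4 mitochondrial chaperone and stress genes sesn2, a gene induced by cell stress, rose (0.31 ± 0.03). Without D1, 4 of 14 glycolysis genes rose, aldoaa, gpia and ldha among them, slc25a4 rose, and no gene of the mitochondrial ribosome (13 tested) or of the stress list (4) passed.

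Markers of tissues and of dividing cells moved in the same libraries. All 5 neuron markers fell towards D1 (led by gad1a, -0.15, map2, -0.083, and gap43, -0.073), and their summed level was 1699 CPM at D1 and 2158 to 2496 CPM at D2, against 2253 to 2564 CPM in DMSO. Of 19 cell cycle genes 7 fell, with sums of 1293 CPM at D1 and 1591 to 2374 CPM at D2, against 2440 to 3016 CPM in DMSO. Of 5 liver markers 2 rose and 1 fell, with sums of 78875 CPM at D1 and 107339 to 147044 CPM at D2, against 110506 to 122060 CPM in DMSO. Of 2 erythroid genes tested hbae5 rose (0.34 ± 0.10), while hbae3 had a slope below 0 that did not pass (-0.081 ± 0.053, adjusted p = 0.27 in edgeR). The erythroid sum was 118 CPM at D1 and 118 to 591 CPM at D2, against 68.1 to 180.2 CPM in DMSO. Without D1 none of the 5 neuron markers and 3 of 19 cell cycle genes fell. The part of these shifts in the ndufa1 result was not tested.

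**Figure D4:**
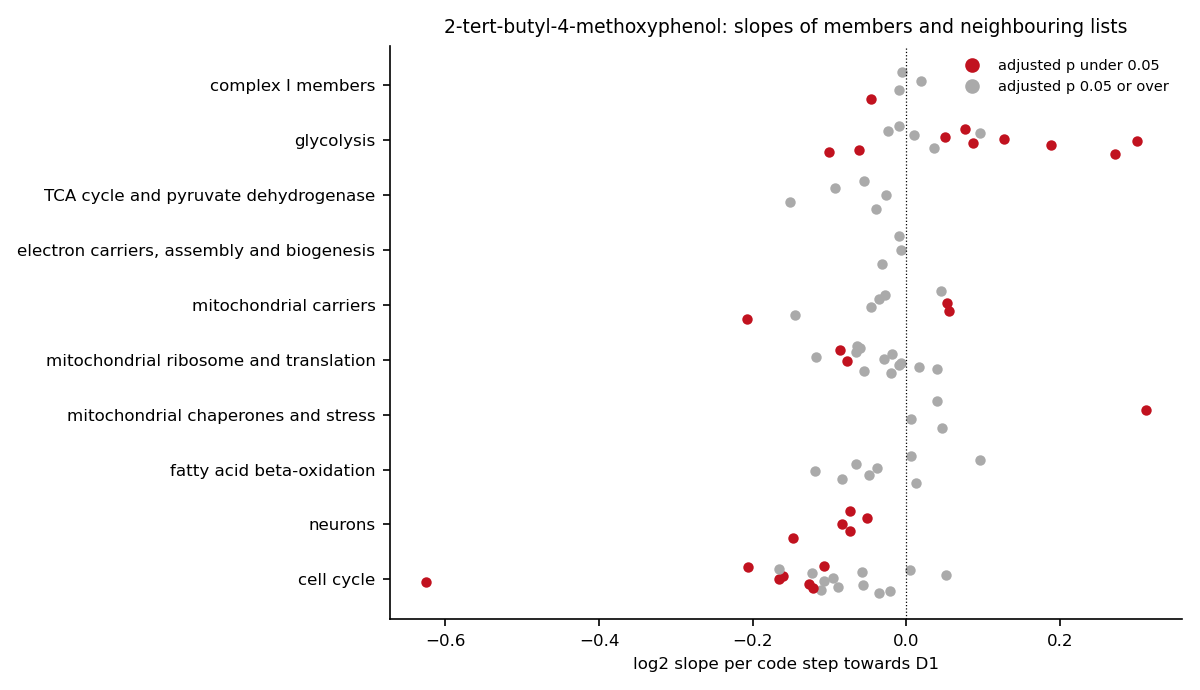
Slopes over the codes of 2-tert-butyl-4-methoxyphenol (log2 change per step towards D1, x axis) for the 4 complex I members and for neighbouring lists, 1 dot per gene. Red dots have an adjusted p under 0.05 in edgeR and grey dots do not. Glycolysis genes reach 0.30 and the cell cycle gene ccnb2 -0.63, while the members lie between -0.046 and 0.020.

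With 3,4-dichlorophenyl isocyanate many genes changed, and no member was called. Its trend passed in 282 of 1507 genes (18.7%) and some code passed in 64 (4.25%), against 0 of 4 members in both, and DESeq2 also called 0 members. The slopes were -0.013 ± 0.013 for ndufa1, -0.008 ± 0.014 for ndufb3, 0.011 ± 0.026 for ndufv2 and -0.009 ± 0.011 for ndufv3, with 0 unadjusted p-values under 0.05. Of its code differences 3 had one, and at D1 the differences from DMSO were largest for ndufv2 (-0.60 ± 0.24, unadjusted p = 0.0162, adjusted p = 0.406 in edgeR) and ndufa1 (-0.25 ± 0.12, unadjusted p = 0.0341, adjusted p = 0.528). Levels of ndufv2 did not follow the codes, since D2 had the highest mean of all groups of 3 or more libraries, at 495 ± 61.1 CPM, beside 459 ± 76.1 CPM in DMSO. Of all genes in that trend 121 (8.03%) rose and 161 (10.7%) fell. Among the lists slc25a4 rose (0.081 ± 0.021) as 1 of 8 carriers, mrps16 fell (-0.082 ± 0.030) as 1 of 12 genes of the mitochondrial ribosome, and in glycolysis hk1 (0.11 ± 0.04) and pfklb (0.047 ± 0.017) rose and gck fell (-0.25 ± 0.08), of 14. None of 5 tricarboxylic acid cycle genes passed, and 12 of 19 cell cycle genes fell.

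**Figure D5:**
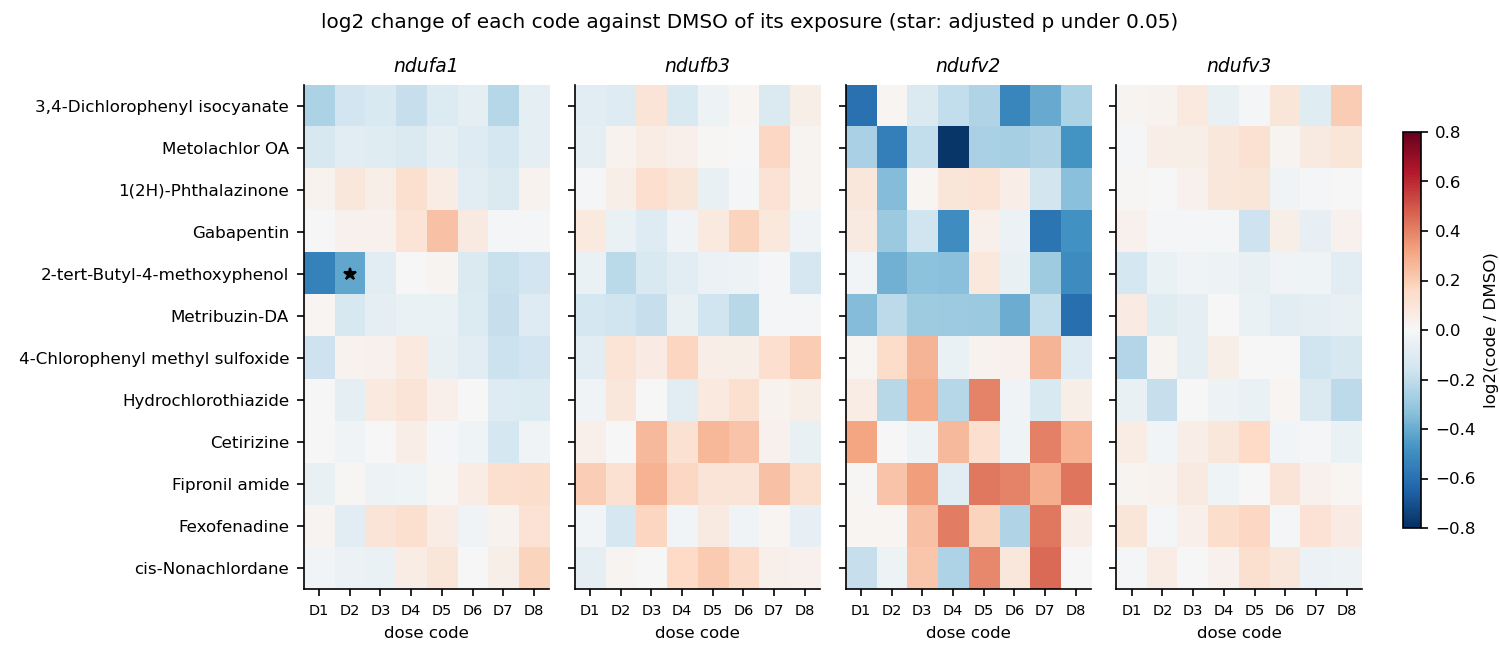
Fitted log2 difference of each code from the DMSO libraries of its exposure (colour, -0.8 to 0.8) for the 4 members, 12 chemicals (rows, neighbours sharing their DMSO libraries) and codes D1 to D8 (columns). The star marks the single cell past the adjusted threshold, ndufa1 at D2 of 2-tert-butyl-4-methoxyphenol (-0.42). The strongest colours are those of ndufv2, which reach -0.78 at D4 of metolachlor OA.

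The remaining 10 chemicals gave no call for a member in edgeR or DESeq2, by trend or at any code. The background was as low. In edgeR the trend passed in 3 of 1484 genes with cetirizine (0.202%), in 1 of 1589 with metribuzin-DA (0.0629%) and in 0% with the other 8, which were metolachlor OA, 1(2H)-phthalazinone, gabapentin, hydrochlorothiazide, 4-chlorophenyl methyl sulfoxide, fipronil amide, fexofenadine and cis-nonachlordane. At some code 1 gene passed with metribuzin-DA (0.0629%), 1 of 1471 with fexofenadine (0.068%) and 0% with the other 8. Of their 40 member slopes 2 had an unadjusted p under 0.05, as had 12 of their code differences. With cis-nonachlordane ndufa1 had a slope of -0.024 ± 0.009 (unadjusted p = 0.0104, adjusted p = 0.630 in edgeR). With gabapentin ndufv2 had a slope of 0.053 ± 0.025 (unadjusted p = 0.0392, adjusted p = 0.985), and 0.051 ± 0.025 without the D5 library that stood apart. The slope of ndufa1 with fipronil amide, -0.028 ± 0.016, had an adjusted p of 0.727 in edgeR.

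The largest differences from DMSO in these chemicals were in ndufv2. With metolachlor OA it was 0.583-fold at D4 (95% interval 0.417 to 0.814, adjusted p = 0.998 in edgeR), and with metribuzin-DA 0.658-fold at D8 (0.507 to 0.853, adjusted p = 0.999), both on plates where its DMSO level was high. With metolachlor OA ndufv2 was below the DMSO library of its plate on all 3 plates at all 8 codes. With 3,4-dichlorophenyl isocyanate, on the same plates, this held at D1 and D5 only, and at D2 it was so on 0 plates. In all 26 of 95 groups had ndufv2 below DMSO on all 3 plates. Gabapentin gave the lowest group means of ndufv2, 203 ± 30.8 CPM at D7 and 207 ± 25 CPM at D4, beside 301 ± 39.4 CPM in DMSO, and neither difference passed. For ndufa1 the largest difference in these chemicals was that of gabapentin D5, 0.24 ± 0.10 on the log2 scale with an unadjusted p of 0.019 and an adjusted p of 0.999 in edgeR. It was 0.13 ± 0.10 without the library that stood apart. For ndufv3 the largest was that of 4-chlorophenyl methyl sulfoxide at D1, -0.24 ± 0.09 (unadjusted p = 0.0156, adjusted p = 1 in edgeR). No difference of ndufb3 had an unadjusted p under 0.05 at any of the 96 codes. The spread limits what could be seen, and the median SE of a code difference was 0.10 for ndufv3, 0.12 for ndufa1, 0.13 for ndufb3 and 0.23 for ndufv2 on the log2 scale.

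Genes with a like pattern were looked for over the means of the 96 groups, centred on their chemical, among 1109 genes, for the 3 members with the smallest adjusted p in any trend. For ndufa1 these were aebp2 (Pearson r = 0.666), s100a11 (0.623), ppp2r1ba (0.620), rps27a (0.596) and nfyba (0.592). Without the 2 libraries that stood apart r was 0.593 for aebp2, 0.493 for s100a11, 0.546 for ppp2r1ba, 0.614 for rps27a and 0.592 for nfyba. In that order they then ranked 3, 13, 7, 1 and 4. For ndufv3 they were prdx2 (0.537), got2a (0.526), pygma (0.416), grb14 (0.411) and gap43 (0.406). Without the same 2 libraries r was 0.548 for prdx2, 0.445 for got2a, 0.446 for pygma, 0.406 for grb14 and 0.310 for gap43, which then ranked 29. Among them got2a is the gene of mitochondrial aspartate aminotransferase. For ndufv2 they were magi1b (0.341), camk2a (0.335), ei24 (0.331), cdk5 (0.324) and lysmd3 (0.312). Without the 2 libraries r was 0.432 for magi1b, 0.371 for camk2a, 0.324 for ei24, 0.352 for cdk5 and 0.317 for lysmd3, which then ranked 9. These are descriptions over groups that share plates and libraries.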

How the data were processed

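Counts of the TempO-Seq libraries were used as deposited by the authors, as whole-number counts per probe with no normalization. Reads were demultiplexed with bcl2fastq, per the submitters' processing notes. Which aligner, probe set or build they used is not given in the sources here. Gene names are those of the deposited table, and all 4 members were also found by symbol in a RefSeq gene table. Groups follow the treatment label and the coded description of each library, since the titles of some caffeine libraries name DMSO. CPM is the count scaled to a library total of 1000000. Tests used edgeR 4.0.16 in R 4.3.3 (TMM, filterByExpr with a minimum count of 10, quasi-likelihood F-test) on all genes of an exposure or control set, with Benjamini-Hochberg adjustment and a threshold of 0.05. DESeq2 1.42.0, RLE factors, no filter, a plate block, and leaving out plates, exposures, D1 or single libraries were alternatives. Letters A to C of the coded descriptions were read as plates, which the descriptions do not spell out. The C libraries of fexofenadine and cis-nonachlordane carry the same well codes, so the codes do not settle this reading. Libraries of 1 letter were closer to each other than to other letters in 40 to 49 of 51 to 54 libraries of an exposure. However, deviations of the 18 caffeine and DMSO pairs of a letter correlated over 0.1 in 10 pairs only. Comparisons within a plate rest on this reading. Named genes are those of each list that passed the threshold, largest slopes first, and for likeness the 5 with the highest Pearson r of log2(CPM + 1) to each of the 3 members with the smallest adjusted p. Members, lists and the rules for named genes were chosen with earlier results of these data known. The count of a library limits precision by counting error, and the labels name pooled larvae as replicates. Every gene called with edgeR is reported relative to the other probes of the panel.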

Additional observations from a re-analysis of the deposited data

Results flagged for a closer look

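The lowest of the 8 caffeine QA libraries for ndufv3, at 2357 CPM, lay far from the other 7, which had 2608 to 2803 CPM. Its gap to the next library was 0.563 of the range of the group, above the critical value of 0.526. It was 1 of 16 such comparisons over the 4 members, with the lowest and highest library of a group each compared. Among so many comparisons a flag can arise by chance. The same library held the highest ndufa1 value of its group, 2555 CPM. The slope of ndufa1 over the codes differed between 2-tert-butyl-4-methoxyphenol and metribuzin-DA by -0.060 per step in the test of the difference itself, with the limits given above.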

How the results depend on the processing

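The number of members called was computed for 35 comparisons under 270 alternatives and kept its value in 256. Most of these comparisons had 0 members called to begin with. The 14 changes all fell on comparisons with a call, those of 2-tert-butyl-4-methoxyphenol and of the DMSO exposures. The calls of ndufa1 with 2-tert-butyl-4-methoxyphenol, by trend, at some code and against metribuzin-DA, held with RLE factors, without the filter, in DESeq2 and with the plate as replicate block (slope -0.039, difference of slopes adjusted p = 0.0117). Leaving out a plate gave 0 members in each of the 3 comparisons, and so did leaving out D1 (trend and difference of slopes as planned, some code as an alternative added after seeing the data). The number of members differing between exposures in DMSO was 3 in DESeq2, and 0 to 1 without a plate. The cause of these losses was not tested. TMM-adjusted library sizes moved no mean level in DMSO by more than its SD. This covers the DMSO libraries only and does not show how far TMM moved the code groups of the chemicals. Leaving out the gabapentin D5 library of plate C, also added after seeing the data, left 0 members called. Counts were fewest for ndufv2, with 30 in its lowest library, beside 44 for ndufb3. The part of depth in the wider spread of ndufv2 was not tested.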

Other observations

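Plate A had the lowest mean ndufv2 level of the 3 plates in 6 of 6 exposures, over all libraries of a plate. It was lowest in 4 of 6 for ndufa1, 3 of 6 for ndufv3 and 2 of 6 for ndufb3. The share of all probes with such an order was not counted. The largest ratio between plates of an exposure was 1.20 for ndufv2, 1.15 for ndufa1, 1.06 for ndufb3 and 1.06 for ndufv3. In the QA set ndufa1 was higher in the library of well column 12 than in that of column 1 in 7 of 8 pairs of the same library plate and treatment, ndufv2 and ndufv3 in 5 of 8 and ndufb3 in 1 of 8. Of 440 probes with a mean count of 100 or more, 48 (10.9%) were higher in column 12 in 7 or 8 pairs and 70 (15.9%) in 0 or 1. These counts were made after the values were seen and were not tested.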
